A study of Mus musculus with 18 samples.

Results

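PAt and Arrested cells, Foxp3-expressing T cells in which the Timer reporter showed reduced or arrested Foxp3 transcription, were compared with effector T cells (Teff) by RNA-seq. The comparison took the 3 PAt libraries and the 3 Arrested libraries together against the 3 Teff libraries, which are 9 of the 18 libraries of the series, and it was run over genes whose log2 values averaged 3 or more across all 18. The cells came from female C57/BL6 Foxp3Timer Foxp3-IRES-GFP mice, whose abdominal skin had been painted with 3% oxazolone, a hapten that induces contact hypersensitivity, and whose inguinal and axillary lymph nodes were taken after 5 days. All groups carried both reporters and all received the hapten, and the labels give no age. Each library was made from a pool of 3 mice. Timer is a fluorescent protein driven by Foxp3 transcription. It emits blue light when newly made and red light once matured, so that blue reports recent and red reports past transcription. PAt cells, which the labels call mature Foxp3 expressers and quiescent Treg, and Arrested cells, which they call decaying Foxp3 expressers, were CD4+GFP+ cells separated by the balance of blue and red fluorescence. Teff cells were CD4+ T cells that were CD44hi and negative for GFP and Timer. According to the labels, Teff cells were chosen for high CD44, the adhesion receptor that marks activated T cells, and PAt and Arrested cells were not. A difference between Foxp3-expressing and Foxp3-negative cells and a difference that follows CD44 therefore cannot be told apart in this comparison. The other 3 populations, naive T cells (Tnaive) and 2 populations with persistent Foxp3 transcription (Pers1 and Pers2), entered the fit as a shared estimate of the spread.

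Foxp3 is the transcription factor that defines regulatory T cells (Treg), which restrain other T cells. Treg carry the high-affinity receptor chain for IL-2, make little IL-2 themselves and depend on IL-2 from activated neighbours, which signals through STAT5. Activated CD4+ T cells in a lymph node that drains inflamed skin include cells that leave for the tissue and follicular helper T cells, which enter B cell follicles guided by Cxcr5 and help B cells with IL-21 and CD40 ligand.

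The values were log2 normalised counts on a regularised scale, so that a difference of 1 is a change of 2-fold and genes with few reads are drawn towards each other. Read counts were not analysed here, so depth is unknown, and errors come from how far the 3 libraries of a population lay from each other. Foxp3 itself (chrX:7573644-7595245, GRCm38), whose reporters had been used to sort the cells, stood at 10.38, 10.59 and 10.64 in Teff and between 14.36 and 14.65, with a median of 14.43, in the 6 PAt and Arrested libraries. That difference follows from the sort and serves as a check of the labels. Cd44, the other sorting marker, stood between 13.04 and 13.05 in Teff and between 11.70 and 12.05 in PAt and Arrested cells. The 10 markers of CD4+ T cells had a mean level of 14.36 to 14.38 in Teff and of 13.91 to 14.05 in PAt and Arrested libraries.

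The Teff libraries also held transcripts of other cell types. The level of a list of 12 plasmacytoid dendritic cell markers ran from 9.45 to 9.91 in Teff and from 7.37 to 7.51 in PAt and Arrested cells. Of those 12 genes, 10 were called lower than in Teff, against 4.04% of all tested genes. Of the markers of macrophages and monocytes, 8 of 11 tested were called lower, with list levels of 6.82 to 6.99 in Teff and 5.16 to 5.43 in the other cells. Likewise, 6 of 10 markers of conventional dendritic cells were called lower, at 6.51 to 6.70 against 4.77 to 4.92, as were 4 of 6 markers of NK cells, at 5.57 to 5.67 against 4.32 to 4.56. Cd8a, the coreceptor chain of CD8+ T cells, stood at 10.40, 10.91 and 10.58 in Teff and between 8.81 and 9.39 in PAt and Arrested cells. B cell markers were present in all 9 libraries. Their level was 8.66 to 9.31 in Teff and 8.32 to 8.82 in PAt and Arrested cells, the groups overlapped, and 2 of 11 markers (Cd22 and Blnk) were called lower. In bulk RNA, fewer cells of a type and less RNA per cell cannot be told apart, and the part that these cells play in the genes that were lower than in Teff was not tested. One PAt library stood apart in the other direction. PAt replicate 1 held the salivary gland gene Smr3a at 10.22, against 3.32 to 4.85 in the other 8 libraries, and the salivary gland list at 7.02, against 3.03 to 4.60. Amy1 and Bpifa2 from this list were called higher than in Teff, at log2 fold changes of 1.01 and 1.94, and without PAt replicate 1 they were at 0.65 and 1.31 and no longer passed the test. Both also lost the call without PAt replicate 2, Arrested replicate 2, Teff replicate 1 or Teff replicate 3, with only the 9 libraries in the fit, with no trend in the variance and with robust variance moderation.

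**Figure D1:**
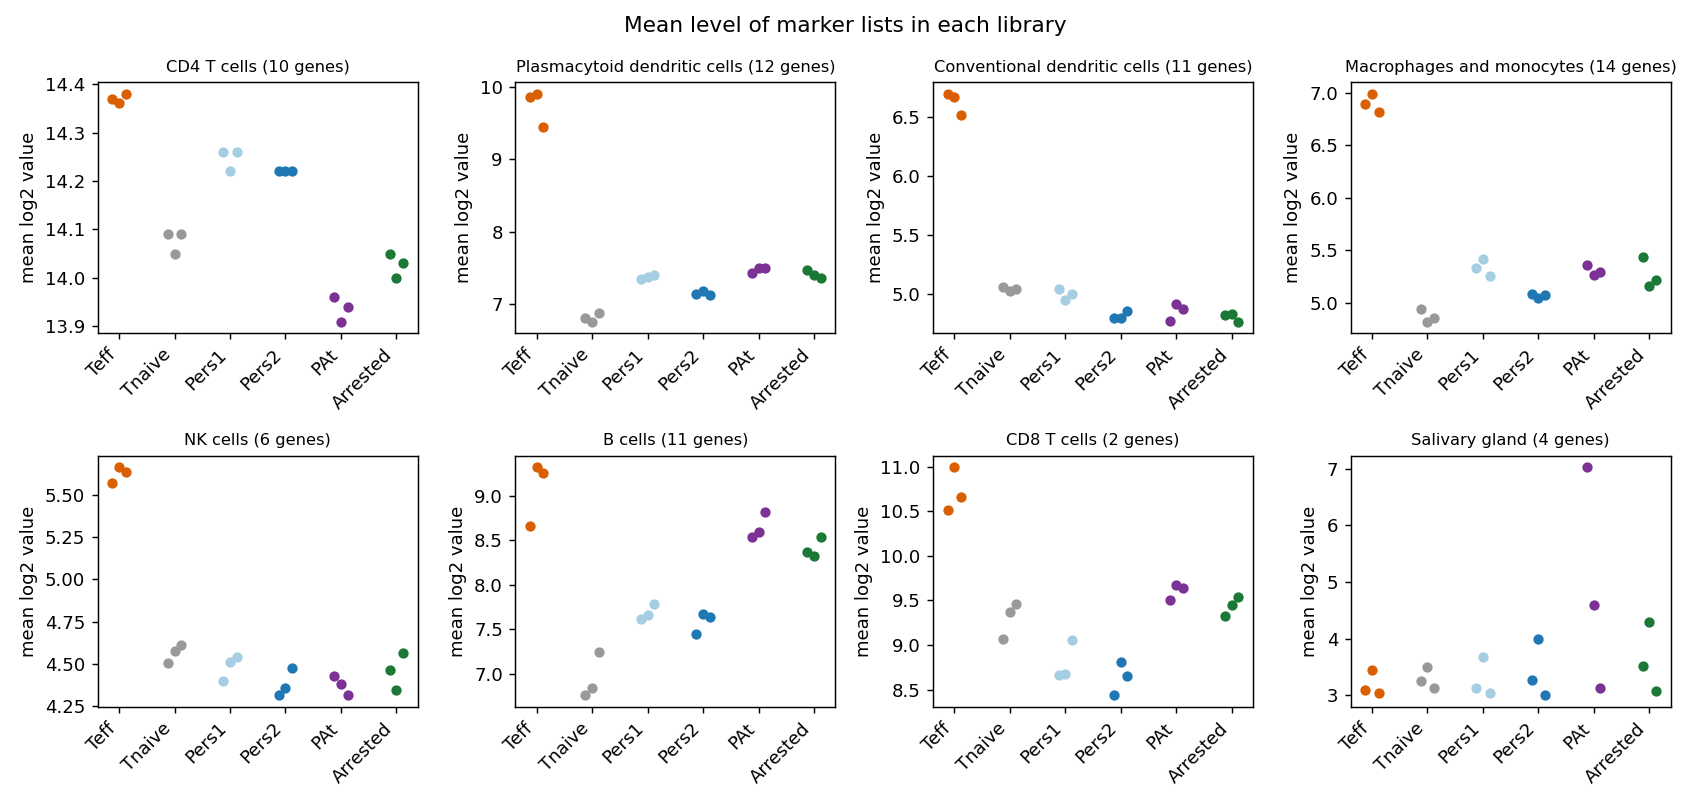
Mean log2 value of 8 lists of cell type markers (vertical axes, with different ranges) in each of the 18 libraries (points) by population. Teff libraries lie above all others for both kinds of dendritic cells, macrophages and monocytes, NK cells and CD8 T cells, B cell markers overlap between Teff and PAt, and the point at 7.02 in the salivary gland panel is PAt replicate 1.

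Of 13190 genes tested, 908 (6.88%) differed between PAt and Arrested cells and Teff at an adjusted p under 0.05 with an absolute log2 fold change over 1 (limma with Benjamini-Hochberg adjustment). Of these, 375 (2.84%) were higher and 533 (4.04%) were lower. The 6 PAt and Arrested libraries lay above all 3 Teff libraries for 373 of the 375 and below them for all 533. These genes were called on the same libraries, so this separation largely follows from the call and adds no support to it. Over all tested genes, 18.7% showed the upper pattern and 22.3% the lower one, and the median log2 fold change was -0.01. Of the 533 genes that fell, 161 had a mean under 6 in each of the other 5 populations. Among the genes that rose, 79 of 375 had a mean under 6 in Teff. The same shares over all tested genes were not counted, so these are descriptions only. The mean distance between libraries over all tested genes was 74.0 for Teff and PAt, 69.5 for Teff and Arrested, and 29.3 for PAt and Arrested, which is close to the distances of 23.2 to 27.3 within a population.

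The gene that rose most was Lrrc32 (chr7:98489283-98502181), which encodes GARP, the receptor that holds latent TGF-beta on the surface of Treg. It was listed at 5.58, 5.70 and 5.58 in Teff, and the 6 other libraries ran from 13.07 to 14.06 with a median of 13.73. The groups were far apart, with a log2 fold change of 8.03 ± 0.10 (SE, adjusted p = 1.19e-22). Tnaive cells had a mean of 5.57, so that the level in Teff was that of naive cells. Ikzf4 (chr10:128630843-128645991), which encodes the Ikaros family factor Eos, stood at 7.14, 6.97 and 7.45 in Teff and between 11.66 and 12.52 in PAt and Arrested cells, a log2 fold change of 4.96 ± 0.08 (adjusted p = 7.93e-21). PAt libraries (12.43 to 12.52) were all above Arrested libraries (11.66 to 11.96) for this gene.

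The other genes among the 15 largest increases were of several kinds. Sorcs2 (chr5:36017180-36398139), a receptor of the sortilin family, was at 5.55, 6.07 and 5.61 in Teff and at 9.48 to 9.93 in PAt and Arrested cells. Its mean was 8.93 in Tnaive cells and 5.67 and 5.88 in Pers1 and Pers2 cells, so that PAt, Arrested and Tnaive cells shared the higher level. Gata1 (chrX:7959260-7978071), known as a factor of red blood cell development, had a similar order, with 6.34, 6.26 and 6.36 in Teff, 9.87 to 10.39 in PAt and Arrested cells and a mean of 8.64 in Tnaive cells. The erythroid list held only 1 gene in the table, at 4.23 to 4.58 in Teff and 4.31 to 4.67 in PAt and Arrested cells. Ecm1, an extracellular matrix protein, rose by 3.68 ± 0.07 on the log2 scale, Rgs9, a regulator of G protein signalling, by 4.00 ± 0.11, and Coro2a, an actin-binding coronin, by 3.65 ± 0.08. Genes of the cytoskeleton were also among them. Dnah7a, a dynein heavy chain, rose by 4.04 ± 0.09, the giant muscle protein gene Neb by 3.87 ± 0.10, and the microtubule protein gene Map6 by 3.58 ± 0.12. In addition, 1 of the 15 was a gene model, and 33 of the 375 genes that rose were gene models.

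**Figure D2:**
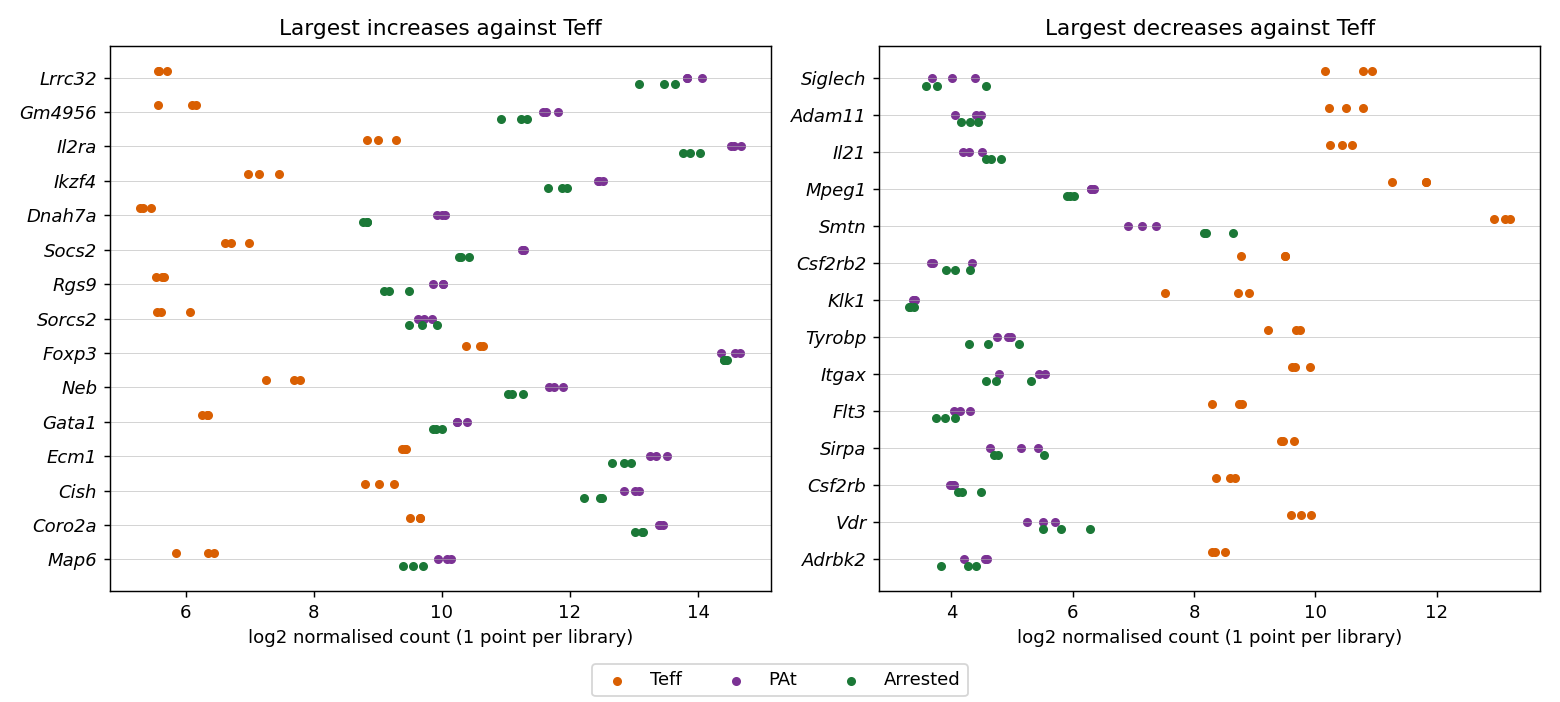
Log2 normalised counts (horizontal axes) of the 15 genes with the largest increases (left) and of 14 of the 15 with the largest decreases (right) in PAt and Arrested cells against Teff, 1 point per library. Genes were drawn only from those whose groups did not overlap, so the 3 Teff points are separate from the 6 others by selection. The widest gap is that of Lrrc32.

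The receptor for IL-2 and the feedback inhibitors of cytokine signalling rose together. Of 18 genes of the common gamma chain cytokine receptors and their signalling, 6 rose, against 2.84% of all tested genes. The median log2 fold change of the 18 was 0.42 against -0.01 over all genes. Il2ra (chr2:11642807-11693193), the high-affinity chain CD25, stood at 8.83, 8.998 and 9.28 in Teff and between 13.76 and 14.67, with a median of 14.28, in PAt and Arrested cells. This was a log2 fold change of 5.20 ± 0.08 (adjusted p = 7.16e-21), or 36.8-fold on this scale. The chains that Il2ra works with had smaller differences, with 0.74 for Il2rb and -0.07 for Il2rg, and neither passed the fold threshold. Feedback inhibitors that STAT factors induce rose as well. Socs2 (chr10:95385362-95417180) was at 6.62, 6.995 and 6.70 in Teff and at 10.27 to 11.29 in PAt and Arrested cells, a log2 fold change of 4.03 ± 0.08. Cish (chr9:107296026-107302784) was at 9.25, 8.80 and 9.01 and at 12.22 to 13.08, a log2 fold change of 3.67 ± 0.08 (adjusted p = 1.12e-18). Socs1, at 9.17, 8.02 and 9.22 in Teff, had the widest spread among these and ran from 10.51 to 11.02 in the other cells, a log2 fold change of 1.96 ± 0.19. Socs3 rose by 1.57 ± 0.08 and the IL-4 receptor chain Il4ra by 1.82 ± 0.05, but in both cases Tnaive cells had similar or higher means (12.17 and 14.36). The STAT genes themselves had log2 fold changes of 0.44 (Stat5a), 0.38 (Stat5b), 0.22 (Stat6) and 0.04 (Stat3), and Il7r, the IL-7 receptor, was at -0.10 ± 0.10 (adjusted p = 0.413).

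The RefSeq promoter of Cish (GRCm38.p6, chr9:107296409-107296708, plus strand) is shown because it holds the letters TTCNNNGAA, the motif of STAT dimers, at 2 places. They stand in capitals and begin at positions 1 and 12, counted from the start site.
Cish: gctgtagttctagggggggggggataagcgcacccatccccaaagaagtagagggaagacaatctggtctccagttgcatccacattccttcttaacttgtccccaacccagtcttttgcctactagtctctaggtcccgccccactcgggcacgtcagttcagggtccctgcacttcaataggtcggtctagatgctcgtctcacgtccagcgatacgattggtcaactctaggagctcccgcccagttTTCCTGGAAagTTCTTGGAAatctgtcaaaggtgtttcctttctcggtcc
The motif reads the same on both strands. Within 250 bases before to 50 after the start, it was found in 8.56% of the 9938 tested genes with a promoter sequence, in 36 of 273 genes that rose (13.2%) and in 27 of 375 that fell (7.2%). Of the gamma chain genes, 3 of 16 held it. Between the lists the count ran from 0 of 20 genes of mitosis to 7 of 15 inflammatory cytokine receptors. The promoter of Socs1 held none, and that of Siglech, the gene that fell most, held 1. The other 3 motifs searched on both strands were those of forkhead factors (GTAAACA), AP-1 (TGANTCA) and the Y box of class II genes (CTGATTGG). GTAAACA was in 3.13% of all promoters, 4.4% of those of genes that rose and 3.47% of those of genes that fell. TGANTCA was in 5.99% of all promoters, in 20 of 273 (7.33%) of genes that rose and in 48 of 375 (12.8%) of genes that fell. A match of letters is a description and not a binding site.

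The median log2 fold change of the 20 genes of Treg identity was 1.63. Of the 20, 14 rose (2.84% of all tested genes did), among them Foxp3, whose rise follows from the sort. Besides Lrrc32, Il2ra, Ikzf4, Socs2 and Foxp3, they included the orphan receptor gene Gpr83 (7.05, 7.94 and 7.14 in Teff, 10.48 to 11.41 in PAt and Arrested cells), the inhibitory receptor gene Klrg1 (4.66, 4.89 and 4.97, against 7.14 to 8.10) and Ikzf2, which encodes Helios. Ikzf2 was already high in Teff, at 12.52, 12.39 and 12.43 against a mean of 7.83 in Tnaive cells, and it stood at 14.05 to 14.79 in PAt and Arrested cells, a log2 fold change of 1.93 ± 0.07. The TNF receptor family members Tnfrsf18 (GITR) and Tnfrsf4 (OX40) rose by 1.65 ± 0.06 and 1.61 ± 0.07. Several Treg genes that Teff cells also expressed differed little. Ctla4, the inhibitory receptor that captures costimulatory ligands, was at 13.48, 13.19 and 12.79 in Teff and at 13.18 to 13.94 in PAt and Arrested cells, and the groups overlapped. Its log2 fold change was 0.43 ± 0.17 (adjusted p = 0.0399). The semaphorin receptor gene Nrp1, at 12.90, 12.96 and 12.99 in Teff and a mean of 7.88 in Tnaive cells, had a log2 fold change of 0.39 ± 0.07. Tigit was lower by less than the threshold, at -0.59 ± 0.12.

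The mediators of suppression did not move as one. Of 14 tested, 5 rose and 1 fell (2.84% and 4.04% of all tested genes), with a median of 0.50. Penk, which encodes the opioid precursor proenkephalin, stood at 6.36, 6.94 and 6.77 in Teff and at 9.47 to 10.27 in PAt and Arrested cells, a log2 fold change of 3.15 ± 0.11. Itgb8, the integrin chain that releases TGF-beta from its latent form, was at 5.60, 6.55 and 5.92 in Teff and at 8.18 to 9.05 in the others, a log2 fold change of 2.62 ± 0.14. Entpd1, the ectonucleotidase CD39, rose by 1.38 ± 0.08, and its partner Nt5e (CD73) lay just under the fold threshold at 0.99 ± 0.05. The epidermal growth factor family ligand Areg, low in all 9 libraries, rose by 1.26 ± 0.13. Lag3, an inhibitory receptor for MHC class II, moved the other way. It stood at 12.09, 12.24 and 12.35 in Teff and at 9.83 to 10.33 in PAt and Arrested cells, a log2 fold change of -2.22 ± 0.11 (adjusted p = 2.3e-13). The groups overlapped for Il10, which was at 6.65, 6.30 and 5.92 in Teff and at 6.04 to 7.08 in PAt and Arrested cells (0.34 ± 0.16, adjusted p = 0.0816). Gzmb, which encodes granzyme B, was low, at 6.93, 7.32 and 7.48 in Teff and at 6.87 to 8.25 in the others, and the groups overlapped (0.37 ± 0.15, adjusted p = 0.0457).

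Around TGF-beta, 5 of 21 tested genes rose and 2 fell (2.84% and 4.04% of all tested genes). The genes that hold and release the ligand (Lrrc32 and Itgb8) rose as given above. The receptor chain gene Tgfbr1 rose by 1.32 ± 0.06, and the feedback inhibitors Smad7 and Skil by 1.35 ± 0.08 and 1.11 ± 0.05. By contrast, Tgfb3, 1 of the ligands, stood at 8.78, 8.58 and 8.75 in Teff and at 5.26 to 5.86 in PAt and Arrested cells, a log2 fold change of -3.18 ± 0.11. The co-receptor gene Tgfbr3 was lower by 2.00 ± 0.09 than in Teff. Tgfb1, the ligand that Treg are best known for, was at 12.44, 12.14 and 12.46 in Teff and 12.40 to 12.63 in PAt and Arrested cells, with overlapping groups.

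Genes of the follicular helper programme were lower in PAt and Arrested cells. Of 18 tested, 14 fell (4.04% of all tested genes did), and the median log2 fold change was -1.55. Not all members are particular to T cells, and the part in this count of the other cell types found in Teff was not tested. Il21 (chr3:37222759-37232636), the cytokine of these cells, stood at 10.43, 10.25 and 10.60 in Teff and at 4.20 to 4.82, with a median of 4.54, in PAt and Arrested cells. Its log2 fold change of -5.92 ± 0.14 (adjusted p = 4.12e-18) was among the 15 largest decreases, and the mean in Tnaive cells was 5.01. Cxcr5, the chemokine receptor for follicles, was at 12.35, 12.75 and 12.78 in Teff and at 9.66 to 10.49 in PAt and Arrested cells, a log2 fold change of -2.57 ± 0.09. In Tnaive cells its mean was lower still, at 7.80. Bcl6, the lineage factor, went from 12.28, 12.19 and 12.30 to between 10.28 and 10.81, which was the level of Tnaive cells (10.34). The log2 fold change was -1.76 ± 0.08. Cd40lg stood at 12.32, 12.07 and 12.14 in Teff and at 9.56 to 10.38 in PAt and Arrested cells, whereas Tnaive cells had 12.07, so that the low level was that of the Foxp3-expressing cells. Further members that fell were Sostdc1 (-3.69 ± 0.16), a secreted inhibitor of BMP signalling, Tox2 (-2.79 ± 0.15) and Pou2af1 (-2.34 ± 0.08), the latter a coactivator that B cells also express. The surface receptor genes Icos, Slamf6, Btla, Cd200 and Pdcd1 fell by less, with log2 fold changes from -1.33 to -1.14. P2rx7, Il6ra, Ascl2 and Sh2d1a were not called, at 0.30, -0.10, -0.31 and -0.91.

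**Figure D3:**
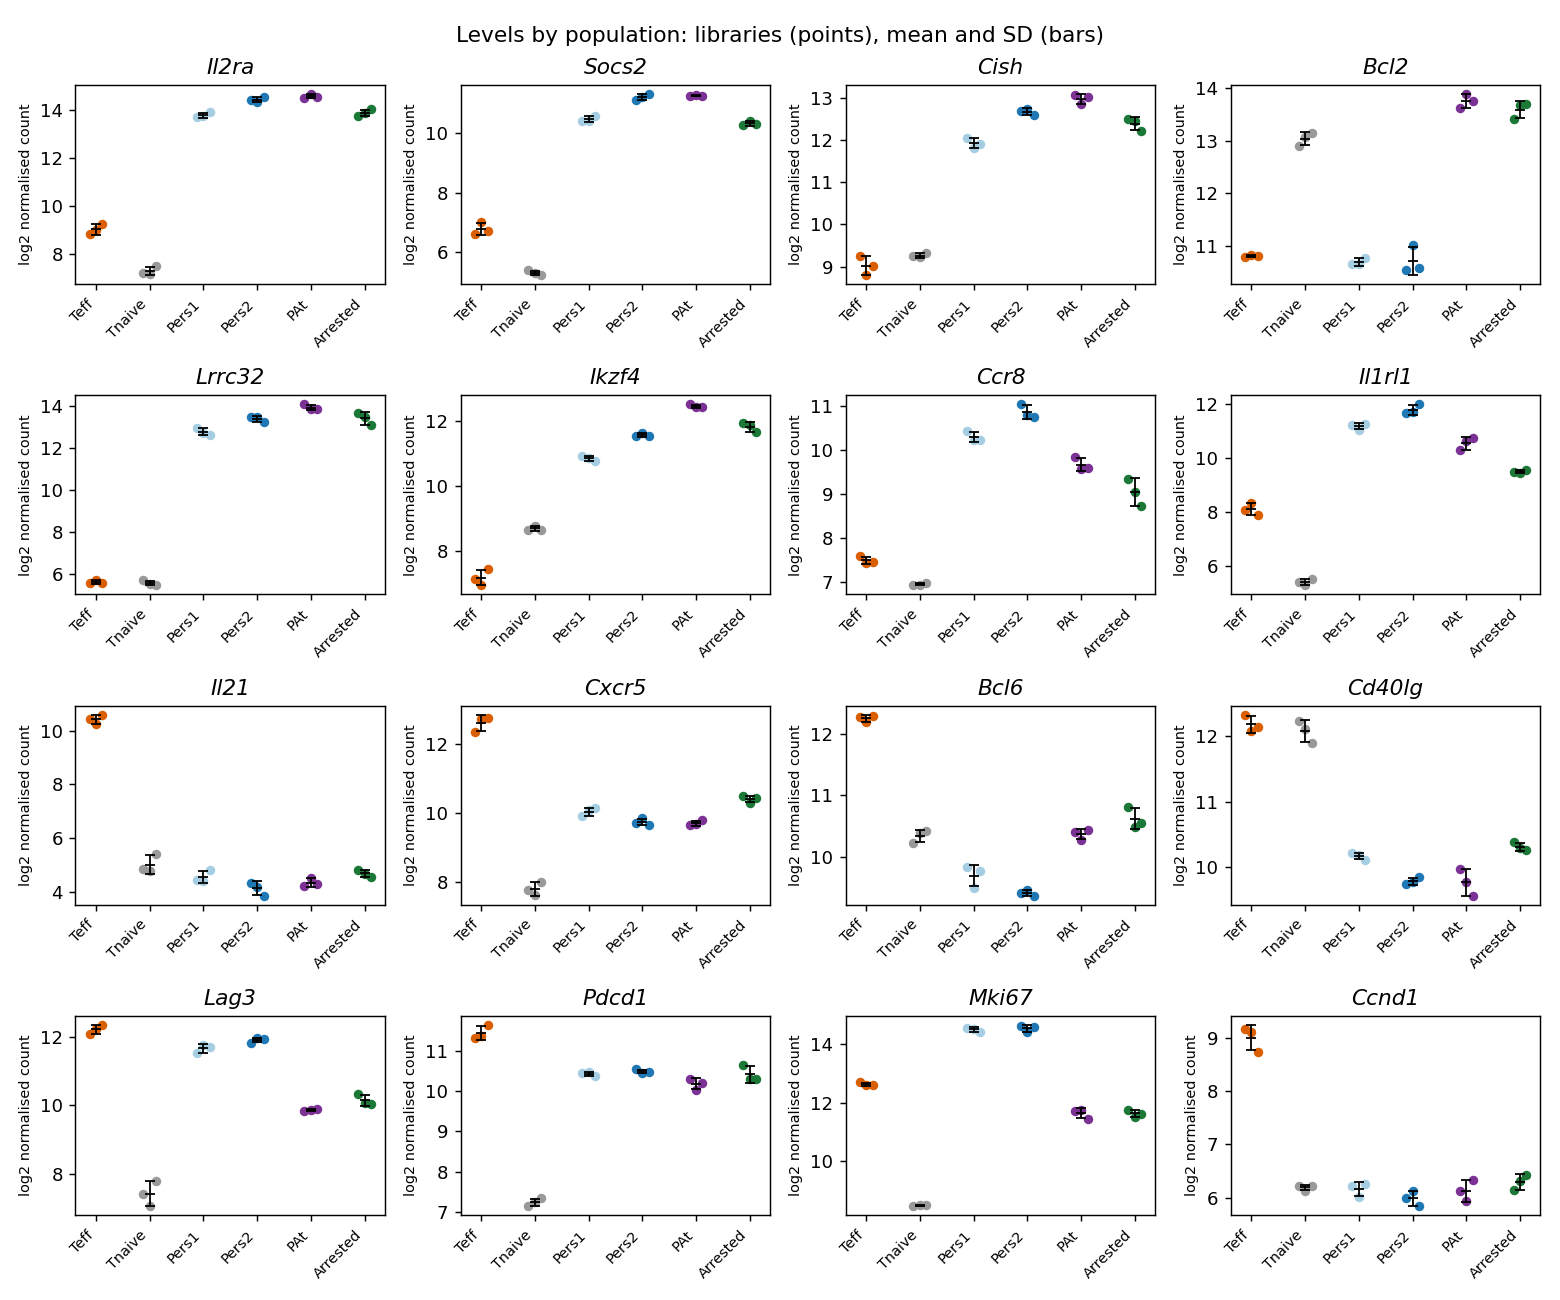
Log2 normalised counts of 16 genes in all 6 populations, with 1 point per library and the mean and SD of 3 libraries as bars. Bcl2 in PAt and Arrested cells lies beside Tnaive and not beside Teff, Il21 is high in Teff alone among the 6 populations, and Mki67 in PAt and Arrested cells lies below Teff and above Tnaive.

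Helper cytokines were mostly lower. Of 18 cytokines and TNF family ligands tested, 7 fell and 1 rose (4.04% and 2.84% of all tested genes), with a median of -0.79. Il4 stood at 7.94, 8.47 and 8.64 in Teff and at 4.59 to 5.58 in PAt and Arrested cells, a log2 fold change of -3.29 ± 0.12. Il2 was near the lower end of the scale in all libraries, at 4.75, 4.78 and 4.81 in Teff and 3.22 to 3.72 in the others (-1.39 ± 0.09), where the transform shortens differences. Tnfsf11, which encodes RANKL, fell by 1.60 ± 0.10, the chemokine gene Ccl3 by 1.39 ± 0.13 and Tnfsf14 by 1.06 ± 0.11. The exception was Lta, lymphotoxin alpha, which rose by 1.61 ± 0.07, from 9.66, 9.65 and 9.78 to between 11.04 and 11.51. Its partner Ltb was at 0.75 ± 0.06, under the fold threshold. Ifng, the cytokine of Th1 cells, was at 8.07, 8.07 and 7.88 in Teff and at 6.91 to 7.56 in the others, a log2 fold change of -0.68 ± 0.13 that did not reach the fold threshold. Il5, Il13 and Il17a had means under 3 and were not tested.

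Among 24 factors of helper lineages, 9 fell (4.04% of all tested genes did). In the order of their change they were Tox2, Runx2, Bcl6, Maf, Irf8, Id2, Tbx21, Irf4 and Zbtb16. Maf, which drives Il4 and Il21, stood at 13.37, 13.28 and 13.54 in Teff and at 11.30 to 11.85 in PAt and Arrested cells, against a mean of 7.92 in Tnaive cells. Tbx21, the factor of Th1 cells, was at 9.06, 8.90 and 8.99 and at 7.14 to 7.68, a log2 fold change of -1.56 ± 0.13. Irf4, which follows the strength of antigen receptor signalling, fell by 1.42 ± 0.11. Runx2 and Irf8 were also on the list of plasmacytoid dendritic cell markers given above. Markers of NK cells and Cd8a were lower than in Teff too, and the part of such cells in the fall of Tbx21 was not tested. Gata3, the factor of Th2 cells, had a log2 fold change of -0.27 ± 0.08, within the fold threshold.

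Chemokine receptors divided. Of 21 tested, 9 fell and 3 rose (4.04% and 2.84% of all tested genes). Ccr8 stood at 7.60, 7.44 and 7.46 in Teff and at 8.73 to 9.83 in PAt and Arrested cells, a log2 fold change of 1.85 ± 0.11, and Ccr6 and Ccr3 rose by 1.51 ± 0.09 and 1.45 ± 0.14. Among those that fell, Ccr10, a receptor of skin-homing T cells, was at 9.88, 9.21 and 9.28 in Teff and at 5.63 to 6.24 in the others, a log2 fold change of -3.49 ± 0.15. Cxcr6 fell by 2.65 ± 0.13, Cxcr3 by 1.33 ± 0.10 and Ccr4, another skin-homing receptor, by 1.18 ± 0.09. Gpr183, which positions cells at the follicle border, fell by 1.96 ± 0.09. Ccr9 fell by 1.53 ± 0.13 and is on the plasmacytoid dendritic cell list too. Ccr7, which holds T cells in the lymph node, was at 12.59, 12.50 and 12.33 in Teff and at 12.60 to 12.94 in PAt and Arrested cells, a difference of only 0.29 ± 0.07, and Tnaive cells had 13.80.

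Of 22 adhesion molecules, 5 rose, 4 fell (2.84% and 4.04% of all tested genes) and 13 were not called, with a median of 0.31. The 4 that fell included Cd44, whose direction follows from the sort. Itgb1, the beta chain of integrins that bind extracellular matrix, stood at 15.52, 15.50 and 15.57 in Teff and at 13.72 to 14.34 in PAt and Arrested cells (-1.53 ± 0.07), against 10.84 in Tnaive cells. Among its several partner chains, Itga4 and Itga6 moved the other way. Itga4 was at 12.55, 12.74 and 12.45 in Teff and at 14.41 to 14.78 in the others (2.01 ± 0.08), and Itga6 rose by 1.35 ± 0.05, both to about the Tnaive means of 14.13 and 13.03. Itgae, the alpha chain CD103 that binds epithelial cadherin, rose by 1.59 ± 0.07. Ly6c1 rose by 2.01 ± 0.11 and Ly6a (Sca-1) fell by 1.51 ± 0.09.

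Of 24 costimulators and checkpoints, 5 rose and 8 fell (2.84% and 4.04% of all tested genes). Those that rose were the tetraspanin gene Cd81 (1.68 ± 0.08) and 4 members of the TNF receptor family. Tnfrsf9 (4-1BB) stood at 9.18, 9.37 and 9.49 in Teff and at 10.97 to 11.87 in PAt and Arrested cells, a log2 fold change of 2.10 ± 0.09. Tnfrsf25 (DR3) rose by 2.06 ± 0.07, and the others were Tnfrsf18 and Tnfrsf4. Those that fell were receptors of the immunoglobulin superfamily, with Lag3, Cd244, Havcr2, Cd200, Btla, Icos, Cd28 and Pdcd1. Cd244 and Havcr2, which dendritic cells or NK cells also express, were at 6.27, 6.14 and 6.12 and at 7.31, 7.69 and 7.66 in Teff, and at 3.84 to 4.48 and 5.72 to 6.39 in the others. Cd28, the main costimulatory receptor of T cells, fell by 1.14 ± 0.06.

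Of the receptors for inflammatory cytokines, 4 of 18 rose and 3 fell (2.84% and 4.04% of all tested genes). Il1rl1, which encodes the IL-33 receptor ST2, stood at 8.10, 8.34 and 7.92 in Teff and at 9.44 to 10.76 in PAt and Arrested cells (1.91 ± 0.10). The IL-1 receptors parted. The decoy receptor gene Il1r2 rose by 1.72 ± 0.09, whereas the signalling receptor gene Il1r1 was at 8.51, 8.08 and 8.41 in Teff and at 4.46 to 5.03 in the others, a log2 fold change of -3.63 ± 0.15. The 2 chains of the interferon gamma receptor, Ifngr1 and Ifngr2, rose by 1.03 ± 0.05 and 1.10 ± 0.07, and Il12rb2, which Th1 cells need to sense IL-12, fell by 1.33 ± 0.12. Tnfrsf1b (TNFR2) was under the fold threshold, at 0.79 ± 0.05.

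Of 26 interferon-stimulated genes, 7 rose (2.84% of all tested genes did), with a median of 0.27. They were Gbp2b, Socs1, Gbp7, Gbp3, Iigp1, Gbp5 and Usp18. Gbp2b, a guanylate-binding protein gene with close copies in the same cluster whose reads may be shared with them, stood at 4.76, 4.79 and 4.94 in Teff and at 7.51 to 9.11 in PAt and Arrested cells. Gbp7 and Gbp3 rose by 1.86 ± 0.09 and 1.85 ± 0.07. The other 19 did not pass the threshold and ran from -0.90 (Rsad2) upward, with Mx1 at -0.83, Isg15 at -0.61, Irf7 at -0.06, Ifit1 at 0.13, Ifit3 at 0.17 and Ifit2 at 0.53. Of all 26, 20 had a positive fold change.

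Most genes of MHC class II presentation were lower, and 8 of 12 fell (4.04% of all tested genes did), with a median of -1.59. H2-Aa stood at 12.98, 13.38 and 13.08 in Teff and at 10.40 to 11.15 in PAt and Arrested cells (-2.42 ± 0.14), and H2-Eb1 at 12.51, 12.98 and 12.71 and at 9.98 to 10.70 (-2.47 ± 0.12). The invariant chain gene Cd74 fell by 1.79 ± 0.11 and Ciita, the transactivator of these genes, by 1.65 ± 0.13. Mouse T cells are not known as a main source of these transcripts, which dendritic cells, macrophages and B cells make in quantity, and markers of the first of these moved the same way, with Siglech (plasmacytoid dendritic cells) at 10.16 to 10.93 in Teff and 3.58 to 4.57 in the others and Itgax at 9.62 to 9.91 and 4.58 to 5.54. The part of such cells in the class II difference was not tested. H2-Ob and H2-Oa, which B cells use to modulate loading, were not called, at 0.62 ± 0.08 and -0.11 ± 0.10. Without the fold threshold, 3 of the 12 were higher than in Teff at an adjusted p under 0.05, with a largest value of 0.69, and 8 were lower. Over all 13190 tested genes, 3271 were higher and 3679 lower by that measure. The Y box CTGATTGG, part of the promoter element of class II genes, was found in 3 of the 8 members with a RefSeq promoter, against 6.65% of all promoters. It is not particular to class II genes. It was also in 4 of 14 genes of cholesterol synthesis and 5 of 20 of mitosis, and in 0 of 21 interferon-stimulated genes. Among all promoters of genes that fell the share was 7.47%, and of genes that rose 5.13%. It is shown in capitals for H2-Aa (chr17:34287774-34288073, minus strand) and H2-Eb1 (chr17:34305617-34305916, plus strand), the members with the largest decreases that held it, where it begins at positions -51 and -62 from the start site.
H2-Aa: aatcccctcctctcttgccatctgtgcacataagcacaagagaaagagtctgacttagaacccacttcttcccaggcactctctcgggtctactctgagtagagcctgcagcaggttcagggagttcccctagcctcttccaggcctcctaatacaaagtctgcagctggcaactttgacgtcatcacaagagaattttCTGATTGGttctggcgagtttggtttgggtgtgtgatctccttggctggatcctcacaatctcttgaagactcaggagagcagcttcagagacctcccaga
H2-Eb1: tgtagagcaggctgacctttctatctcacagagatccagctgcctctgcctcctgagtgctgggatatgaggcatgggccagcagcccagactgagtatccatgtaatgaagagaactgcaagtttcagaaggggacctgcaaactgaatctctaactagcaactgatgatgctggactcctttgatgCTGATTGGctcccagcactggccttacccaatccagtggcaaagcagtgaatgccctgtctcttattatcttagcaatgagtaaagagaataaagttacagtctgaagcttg
The third member with the motif was H2-Oa, which was not called.

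The 15 largest decreases held genes of dendritic and myeloid cells and genes of other kinds. Siglech (chr7:55768178-55778925), a lectin of plasmacytoid dendritic cells, had a log2 fold change of -6.62 ± 0.19 (adjusted p = 8.39e-17). Mpeg1, the perforin-like protein of macrophages, was at 11.83, 11.83 and 11.27 in Teff and at 5.90 to 6.35 in PAt and Arrested cells, a log2 fold change of -5.50 ± 0.125. Klk1, Tyrobp, Itgax, Flt3, Sirpa, Csf2rb and Csf2rb2 had log2 fold changes from -5.26 to -4.41, and all are expressed by dendritic or myeloid cells. Csf2rb and Csf2rb2 are near-identical neighbours whose reads may have been split. Il21, given above, and Adam11 ranked between Siglech and Mpeg1. Smtn (chr11:3517523-3540612), which encodes smoothelin, a protein that binds actin, stood at 13.22, 12.95 and 13.12 in Teff and at 6.92 to 8.65 in PAt and Arrested cells, a log2 fold change of -5.36 ± 0.17. Tnaive cells had a mean of 6.85. Vdr, the vitamin D receptor, was at 9.76, 9.59 and 9.93 in Teff and at 5.25 to 6.28 in the others (-4.08 ± 0.15). The others included Adam11 (-6.19 ± 0.17), a member of the ADAM family, and Adrbk2 (-4.08 ± 0.13), a kinase of G protein-coupled receptors.

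Genes of mitosis were lower by modest amounts. Of 24 genes of mitosis, 5 fell past the threshold (Ccnb1, Kif11, Tpx2, Ube2c and Cdk1), against 4.04% of all tested genes. All 24 had a negative fold change at an adjusted p under 0.05, as did 27.9% of all tested genes. The median was -0.86. Mki67, the proliferation marker, stood at 12.69, 12.59 and 12.59 in Teff and at 11.46 to 11.76 in PAt and Arrested cells. Its log2 fold change of -0.98 ± 0.06 lay just under the fold threshold, and Tnaive cells, at a mean of 8.48, were far below both. It passed the threshold without Arrested replicate 1 (-1.01), PAt replicate 1 (-1.003), PAt replicate 2 (-1.01) or Teff replicate 2 (-1.0002). Of 26 genes of DNA replication, 1 (Rrm2, -1.11 ± 0.16) fell (4.04% of all genes did), and the median was -0.26. Of 18 G1 cyclins and cell cycle inhibitors, 1 fell (4.04% of all tested genes did), and the median was 0.21. It was Ccnd1, at 9.17, 9.12 and 8.74 in Teff and at 5.93 to 6.42 in PAt and Arrested cells (-2.80 ± 0.11), while the cyclins that T cells use most, Ccnd2 and Ccnd3, were at 0.56 and 0.35.

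Of 28 genes that respond early to antigen receptor signals, 4 rose and 1 fell (2.84% and 4.04% of all tested genes), with a median of 0.54. Dusp4, a MAP kinase phosphatase, stood at 9.09, 8.61 and 8.48 in Teff and at 10.32 to 11.40 in PAt and Arrested cells (2.14 ± 0.17). Nr4a1, an orphan receptor gene that is widely used to report antigen receptor signals, was at 12.34, 11.91 and 11.78 and at 13.18 to 13.76 (1.46 ± 0.14). Myc rose by 1.76 ± 0.06 to about its Tnaive mean of 12.39, and Rgs1 by 1.41 ± 0.21. Nfatc1 fell by 1.21 ± 0.06. Egr1, Egr2, Egr3 and Cd69 were not called, at -0.05, -0.52, -0.69 and 0.17. Of 24 genes of the receptor complex and its proximal signalling, the 2 that were called, Themis (-1.80 ± 0.08) and Cd4 (-1.08 ± 0.03), fell (4.04% of all tested genes did). The lists of signalling feedback, glycolysis and cholesterol synthesis held 1 called member each, of 12, 17 and 20 tested. These shares are near the 6.88% of all tested genes. The called members included Dusp4 in the first list and the glucose transporter gene Slc2a3 (1.07 ± 0.04) in the second. The enzymes of glycolysis, which were not called, ran from -0.76 (Pfkp) to -0.06 (Hk2).

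Bcl2, the survival factor, was at 10.79, 10.83 and 10.82 in Teff and at 13.42 to 13.89, with a median of 13.69, in PAt and Arrested cells, a log2 fold change of 2.86 ± 0.09 (adjusted p = 1.93e-16). The Tnaive mean was 13.04. The proapoptotic gene Bbc3 (Puma) also rose, by 1.44 ± 0.14, and Bcl2a1b and Bcl2a1d, near-identical copies of a survival gene whose reads may have been shared, fell by 1.05 ± 0.08 and 1.31 ± 0.08. Together, 4 of 15 genes of the Bcl2 family were called, beside 6.88% of all tested genes. Of 25 genes of quiescent and naive T cells, 5 rose and 2 fell (2.84% and 4.04% of all tested genes), with a median of 0.44. Igfbp4 (2.56 ± 0.11) and Txnip (1.38 ± 0.10) rose with Sorcs2, Tsc22d3 and Tspan9, whereas Dapl1 (-2.22 ± 0.12) and Tcf7 (-1.15 ± 0.04) fell. Tcf7, which encodes TCF-1, stood at 16.04, 16.06 and 16.02 in Teff, beside the Tnaive mean of 16.14, and at 14.64 to 15.13 in PAt and Arrested cells. Bach2, a repressor that keeps T cells from effector fates, was at 11.12, 11.05 and 10.90 in Teff and at 11.94 to 12.06 in the others, with separate groups and a log2 fold change of 0.98 ± 0.07 (adjusted p = 4.63e-11) just under the threshold, which it passed without Teff replicate 1 (1.02). The cytotoxic list had 1 of 15 that rose (Ctsw, 1.28 ± 0.07) and 3 that fell (Klrk1, Klrd1 and Gzma), beside 2.84% and 4.04% of all tested genes. Gzma is on the NK cell list. Markers of NK cells and Cd8a were also lower than in Teff, and the part of such cells in the fall of all 3 was not tested.

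**Figure D4:**
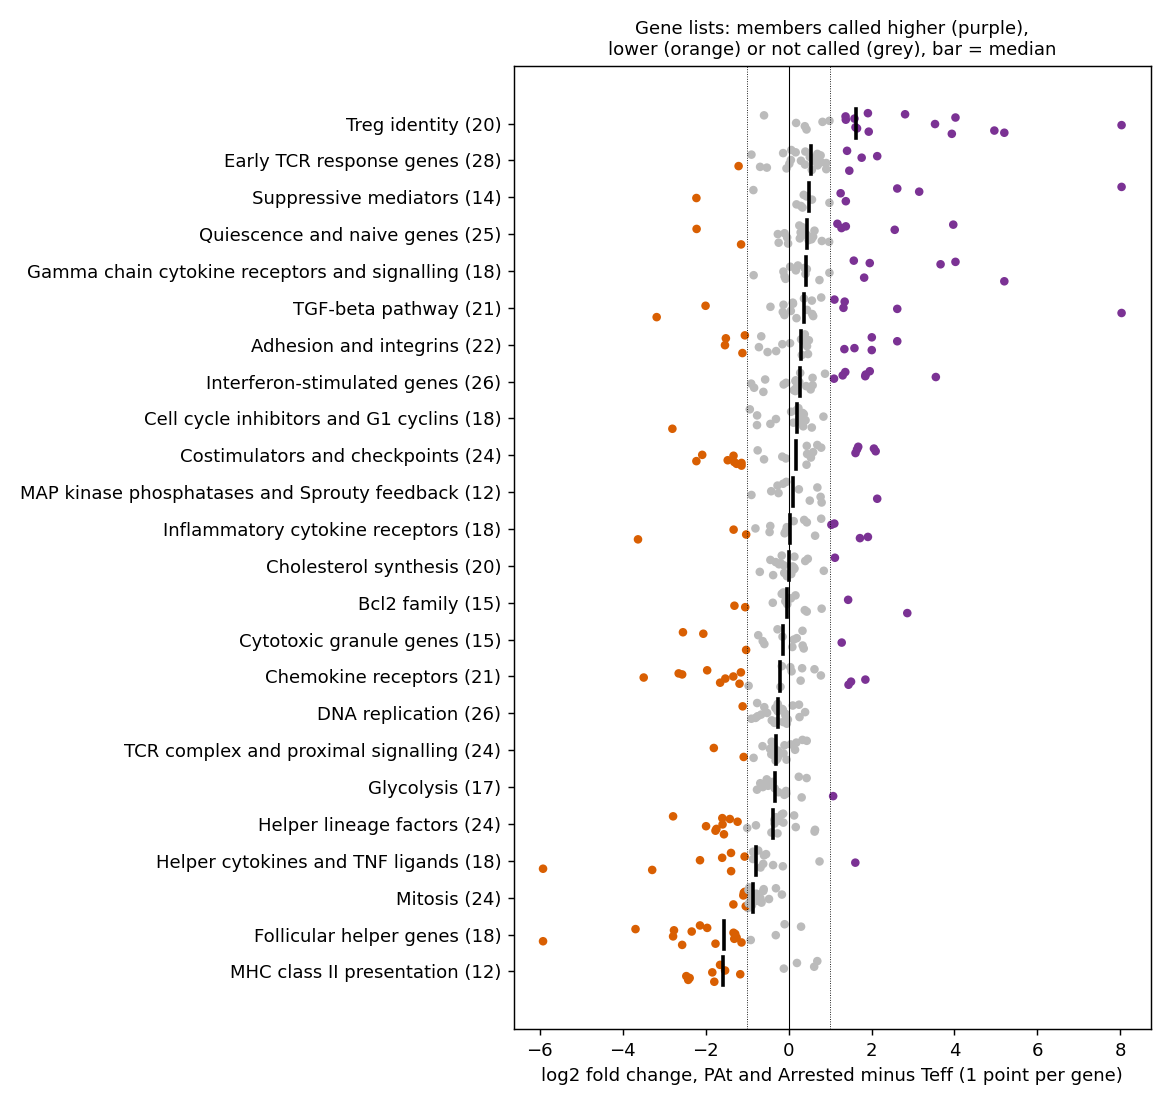
Log2 fold change of PAt and Arrested against Teff (horizontal axis) for each tested member (points) of 24 gene lists, ordered by their median (black bars), with the number of members in brackets and dotted lines at a log2 fold change of -1 and 1. Treg identity has the highest median (1.63), and MHC class II presentation (-1.59) and follicular helper genes (-1.55) have the lowest.

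Over all 24 lists, 128 of 434 different genes (29.5%) were called, with 57 that rose and 71 that fell, beside the 6.88% of all tested genes. The lists were made with earlier results of these data known, so this share is a description.

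Against Teff, PAt and Arrested cells were also taken one at a time, with the same 3 Teff libraries in both. PAt differed from Teff in 984 genes (7.46%), of which 431 (3.27%) were higher and 553 (4.19%) lower. Arrested cells differed from it in 877 (6.65%), with 334 (2.53%) higher and 543 (4.12%) lower. The direct test between them called 16 genes (0.121%), 6 higher in Arrested cells (0.0455%) and 10 lower (0.0758%). The split depended on single libraries, with 14 higher and 12 lower without Arrested replicate 3, 3 and 9 without PAt replicate 2, and 6 and 17 without PAt replicate 3. Of the 16, 13 were among the 908. Of those 13, 12 lay further from Teff in PAt than in Arrested cells. Gbp2b stood at 8.97, 9.11 and 9.03 in PAt and at 7.51, 7.88 and 7.79 in Arrested cells, and its distance from Teff was 4.21 ± 0.11 and 2.90 ± 0.11 (difference -1.31, adjusted p = 6.41e-07). Itgae was at 12.73, 12.82 and 13.06 in PAt and at 11.78, 11.61 and 11.73 in Arrested cells, at distances of 2.17 ± 0.08 and 1.01 ± 0.08 from Teff. Fgl2, a secreted mediator of suppression, lay apart in PAt alone, since PAt (9.13, 9.26 and 9.38) lay above Teff (8.28, 7.95 and 8.23) and Arrested cells (8.23, 7.97 and 8.34) did not. Its difference from Teff was 1.10 ± 0.12 in PAt and 0.03 ± 0.12 in Arrested cells, and the joint value was 0.56. Among the genes below Teff, Tox2, Smtn, Epas1, Vipr1 and Slc16a5 were lower in PAt than in Arrested cells. Slc16a5, a monocarboxylate transporter gene, was at 9.54, 9.62 and 9.43 in Teff, at 8.08, 8.30 and 8.39 in Arrested cells and at 6.48, 6.81 and 7.18 in PAt. Ly6c1, a surface protein of resting and memory T cells, was the gene of the 13 that lay further above Teff in Arrested cells, at 2.56 ± 0.13 against 1.46 ± 0.13 in PAt. For most named genes the direct test did not reach the threshold, as for Foxp3 (-0.10, adjusted p = 0.45), Bcl2 (-0.16) and Il21 (0.34, adjusted p = 0.28). Without the fold threshold, 15 of 20 Treg identity genes and 8 of 14 suppressive mediators had an adjusted p under 0.05 in the direct test. Over all tested genes it was 665 of 13190, and in DNA replication 1 of 26. The median log2 fold change of the Treg identity genes against Teff was 2.02 in PAt and 1.37 in Arrested cells. Their mean level was 12.53 to 12.54 in PAt and 11.93 to 12.06 in Arrested libraries.

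**Figure D5:**
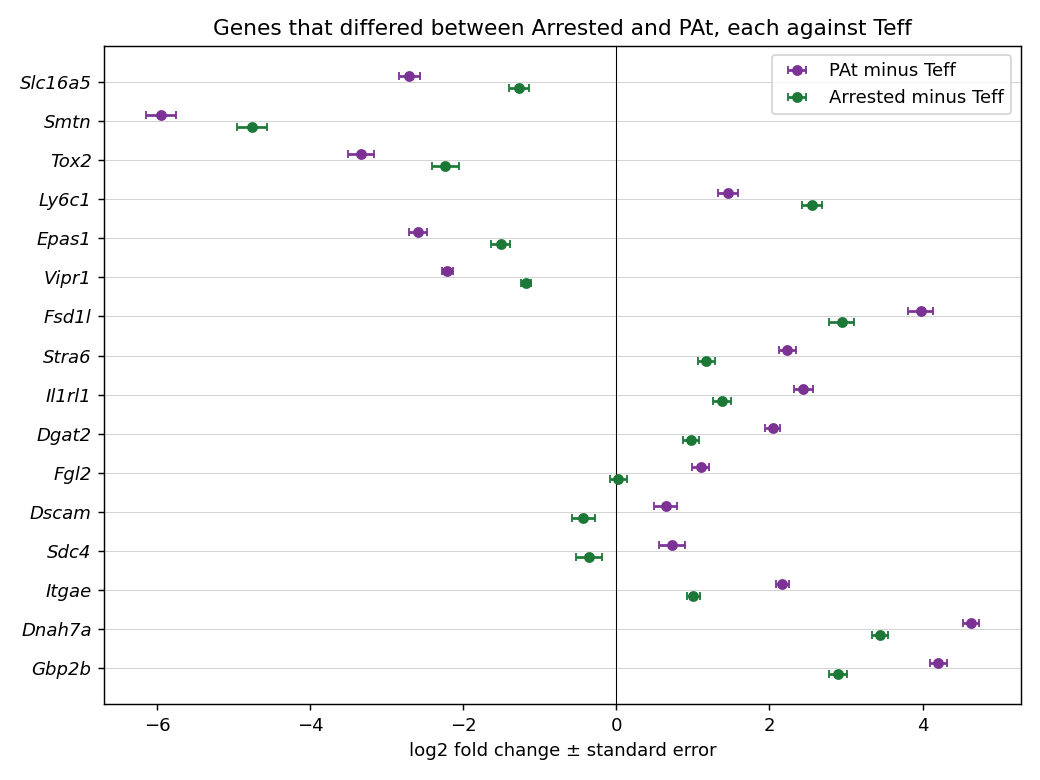
Log2 fold change against the same Teff libraries, with its standard error, of PAt (purple) and Arrested cells (green) for the 16 genes that differed between these populations. Dscam and Sdc4 lie on opposite sides of 0 in PAt and Arrested cells, and Fgl2 in Arrested cells lies at 0.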

How the data were processed

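RNA of sorted T cells (3 libraries per population, each from a pool of 3 mice) was sequenced by the authors after stranded mRNA library preparation, and per the labels the tools were CASAVA 1.8.2, FastQC 0.11.2, TopHat2 2.0.9 and DESeq2 with the genome mm10. The counting program, and whether it used strand, are not given in the sources used here. The authors deposited log2 normalised counts, which have the form of a regularised log transform (DESeq2) that shrinks the fold changes of weakly covered genes. Of 15402 genes, 13190 had a mean of at least 3 and were tested, and 2212 were left out. In 22 rows the symbol is a date, and these are not named. The fit used limma 3.58.1 (R 4.3.3), with 1 mean for each of the 6 populations over all 18 libraries, a variance trend, 12 residual degrees of freedom, no pseudocount and Benjamini-Hochberg adjustment. A gene was called at an adjusted p under 0.05 with an absolute log2 fold change over 1. All adjusted p-values and standard errors of fold changes are limma's. The p-values rest on the spread between libraries within populations, shared over the 6 populations and moderated across genes. This fit took the libraries as independent, and the replicate block was run as an alternative.

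The members and lists were chosen with earlier results of these data known. Named genes were the 15 largest changes each way among called genes whose groups did not overlap (gene models and dates counted only, and a few genes not reported here), up to 4 called members of each list in each direction and those central to it, defining markers, genes that the paper names for these cells, and the 5 largest differences each way between Arrested and PAt. Genes named outside that rule were chosen after their values were seen, as were the genes described as not called.

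The replicate number was taken to pair libraries, because the deposited description has every population sorted from the same animals. Deviations from population means had a median correlation of 0.166 (-0.206 to 0.436) over 45 pairs with the same number and -0.0642 over 90 pairs with different numbers. Among PAt, Arrested and Teff alone it was 0.087 (-0.0742 to 0.239) over 9 pairs, 4 of them above 0.1. With the replicate block, 910 genes were called.

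In simulated data with 13190 genes, 50 of 50 genes changed by 1.5 on the log2 scale in PAt and Arrested against Teff were called. The noise was independent between libraries and 1.5 was the smallest change tried. This checks the code and cannot show how genes near the threshold of 1 fare. Positions are from GENCODE vM21 (GRCm38). Promoters, from 250 bases before to 50 after the start, are from RefSeq (GRCm38.p6), with 9938 of 13190 symbols matched. Of 515 named or listed genes placed in GENCODE, 131 had an exon that overlaps an exon on the opposite strand, Foxp3, Cish, Ikzf4, Il21, Cxcr5, Bcl2, Neb, Coro2a and Smtn among them, and their values are uncertain to that extent. Alternatives to the filter, libraries, block, variance model, threshold and scaling were run.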

Additional observations from a re-analysis of the deposited data

Results flagged for a closer look

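The 16 genes called between Arrested and PAt cells by limma are those whose distance from Teff differed between these populations, by the test of the difference itself. In Arrested minus PAt, 10 had negative log2 values, with -1.31 for Gbp2b, -1.18 for Dnah7a, -1.16 for Itgae, -1.08 for Sdc4, -1.08 for Dscam, -1.07 for Fgl2, -1.07 for Dgat2, -1.06 for Il1rl1, -1.06 for Stra6 and -1.03 for Fsd1l. The other 6 were positive, with 1.03 for Vipr1, 1.08 for Epas1, 1.10 for Ly6c1, 1.11 for Tox2, 1.19 for Smtn and 1.43 for Slc16a5. Sdc4, a heparan sulfate proteoglycan, was at 0.72 ± 0.17 in PAt and -0.36 ± 0.17 in Arrested cells against Teff, and Dscam at 0.65 ± 0.15 and -0.43 ± 0.15, so that the signs were opposite, and the joint values were 0.18 and 0.11. All groups held 3 libraries, which is too few to test a library as an outlier.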

How the results depend on the processing

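Every alternative except the threshold left the total counts of calls within 1.5 times, save 1, the 26 between Arrested and PAt without Arrested replicate 3. With no threshold on fold change, 6950 genes were called for PAt and Arrested, 6416 for PAt and 6179 for Arrested cells against Teff, 665 between Arrested and PAt, and 352 of the list members. Tested against the fold threshold itself (limma's treat), the counts were 582, 608, 489 and 0. No gene was thus shown to differ between Arrested and PAt by more than 1 on the log2 scale. The usual limma test, which is against a difference of 0, gave 2384 genes at an unadjusted p under 0.05 for these populations, and 665 after adjustment. With the mean filter at 6, 701 genes were called. Leaving out 1 library at a time gave 898 to 931 genes for PAt and Arrested, 984 to 999 for PAt, 855 to 920 for Arrested cells, 125 to 135 list members and 12 to 26 genes between Arrested and PAt, where the split by direction varied more than the total. Called genes were 48.6% higher with the filter at 6, against 41.3%. With the replicate block, 910 genes were called (984 and 878 for each population, 17 between them, 128 list members), all 908 remained called, and the call of no named gene changed. Of 145 named genes called, 135 kept their call and direction under every alternative that kept the fold threshold and tested them. The mean filter at 6 removed 30 of the 145 from the test, 25 of the 135 among them, so that 110 were tested and called throughout. Apart from the salivary gland genes Amy1 and Bpifa2, those that did not were near the threshold. With quantile normalisation, Gzma was at -0.93 and Fcgr3 at -0.98. Without Teff replicate 1, Bcl2a1b was at -0.99, Klri2 at -0.99 and Fcgr3 at -0.95. Without Teff replicate 2, Gzma was at -0.93, Cd68 at -0.92 and Il18rap at -0.99, and the last was at -0.98 without Teff replicate 3, -0.94 without PAt replicate 1 and -0.97 without Arrested replicate 2. Gzma was at -0.99 without PAt replicate 2 and -0.94 without Arrested replicate 2, Bcl2a1b at -0.99 and Ube2c at -0.99 without Arrested replicate 2, Ube2c at -0.98 without Teff replicate 3 and Kif11 at -0.997 without PAt replicate 3. Depth is unknown, so low genes such as Il2 are the least certain.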
